A study of Mus musculus with 2 samples.

Results

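The genes that switch on the skeletal muscle program were measured in whole-layer mouse skin, from the satellite cell marker Pax7 to the fusion protein myomaker. They were listed by name under 9 symbols, by a rule that used no measured value, although earlier results of these data were known when the list was made. Tmem8c is the older symbol of Mymk, so the 9 symbols stand for 8 genes of the 24421 in the table, which holds Mymk in the row Tmem8c. The RNA came from wild type C57BL6/J mice. A device glued to the back skin stretched it for 5 days from an initial strain of 33% for 1 library. The other 1 library was of skin that was not stretched, also at day 5. The methods describe young adult female mice with follicles in telogen, the resting phase of the hair cycle, and a strain that was raised every day. The control of a strain experiment of the study wore no device, but whether that holds for the control library, and how many mice gave each piece of skin, is not given in the sources used here.

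Skeletal muscle is built and repaired by satellite cells, stem cells that lie along the fibre and carry the transcription factor Pax7. Their descendants switch on the basic helix-loop-helix factors Myf5 and Myod1, which commit them to muscle, and then Myog, which drives them out of the cell cycle into differentiation. Myf6 is the factor of late differentiation and of mature fibres, Mef2c works with these factors on muscle genes, Cdh15 (M-cadherin) joins myoblasts and satellite cells to muscle cells, and Mymk (myomaker) with Mymx (myomerger) fuses the membranes of myoblasts. Mouse back skin holds striated muscle in the panniculus carnosus, a thin sheet under the dermis and fat.

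The basic helix-loop-helix factors bind the E-box, CANNTG, which reads the same on both strands. It is common: 66.2% of the 32851 promoter windows of 250 bases before a RefSeq start held at least 1. RefSeq windows (build GRCm38.p6) were matched for 5 of the 8 genes, Pax7, Myf5, Myog, Mef2c and Cdh15. Those of Myog and Myf5 are shown because both encode myogenic factors, of which Myog was higher in stretched skin and Myf5 showed no detectable difference. Mef2c has several windows, and those of Pax7 and Cdh15 lie wholly in exons of these genes in GENCODE, so these are not shown. Of the windows shown, the last 15 bases of Myog and the last base of Chrng also lie in GENCODE exons. The shorter stretches before Chrng and Chrna1, acetylcholine receptor subunits that are known targets of these factors, are shown for comparison and were picked after their values were seen. Capitals mark CANNTG, and each sequence runs 5′ to 3′ on the strand of its gene up to the base before the RefSeq start.
Myog, chr1:134289754-134290003, plus strand: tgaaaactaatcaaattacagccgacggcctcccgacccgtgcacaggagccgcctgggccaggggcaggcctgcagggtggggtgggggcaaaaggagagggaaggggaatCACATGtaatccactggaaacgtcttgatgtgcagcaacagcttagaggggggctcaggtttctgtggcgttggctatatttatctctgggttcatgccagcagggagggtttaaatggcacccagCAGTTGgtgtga
Myf5, chr10:107486135-107486384, minus strand: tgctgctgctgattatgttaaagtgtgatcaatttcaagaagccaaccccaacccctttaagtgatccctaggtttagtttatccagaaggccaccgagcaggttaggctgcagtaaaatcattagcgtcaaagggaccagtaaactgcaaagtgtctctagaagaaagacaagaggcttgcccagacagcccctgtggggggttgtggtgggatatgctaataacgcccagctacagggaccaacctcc
Chrng, chr1:87205651-87205810, plus strand: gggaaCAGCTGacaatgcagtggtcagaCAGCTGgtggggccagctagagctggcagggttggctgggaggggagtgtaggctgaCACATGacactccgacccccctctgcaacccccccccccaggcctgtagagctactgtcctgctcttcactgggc
Chrna1, chr2:73580339-73580438, minus strand: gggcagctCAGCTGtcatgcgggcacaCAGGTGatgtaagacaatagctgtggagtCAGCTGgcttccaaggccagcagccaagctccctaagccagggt
The Myog window held CANNTG at 138 and 12 bases before the start, and the Myf5 window held none. Of the windows not shown, that of Cdh15 held 3, those of Mef2c 2, 0 and 1, that of Myh3 1 and that of Pax7 0. CAGCTG, a form of the E-box, which is also counted under CANNTG, occurred 2 times in the window of Chrng and 2 times in that of Chrna1, against at least once in 13% of all windows. It was in none of the windows of Pax7, Myf5, Myog, Mef2c, Cdh15 and Myh3. A match of letters is a description and does not show that a factor was bound.

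Without stretch 14152379 reads were counted, and with stretch 11648655. A fold change is the ratio of CPM (reads of the gene scaled by the library total), stretched to control, and its exact 95% Clopper-Pearson interval covers counting error only. With 1 library per condition there is no replicate check and no p-value, so the values compare these libraries and not the conditions. In whole skin, fewer cells of a type and less RNA per cell cannot be told apart. Over the 16255 genes with more than 3 counts in either library the log2 fold change had a median of -0.12, and scaling by TMM would raise every log2 fold change by 0.10. The exons of the 8 genes overlapped those of no other gene in GENCODE M21, and none of their 76-base stretches occurred in the transcripts of another gene.

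Most of the myogenic genes had more RNA in stretched skin, and the sizes ran from no detectable difference for the satellite cell marker Pax7 to a 26.1-fold difference for the fusion protein Mymk. The interval lay wholly above 0 for 6 of the 8 genes, against 18.1% of the 16255 genes. It lay below 0 for 0 of the 8, against 33.5%, and included 0 for Pax7 and Myf5. The study's methods filter on the product of both FPKM values (EV, above 10) and call a fold of at least 2 or at most 0.5. Here 1 was added to each FPKM before the product and the fold were taken, which the methods do not state, and 6 of the 8 genes could then be called. Of these 4 were called higher, Mymk, Myog, Cdh15 and Myod1, against 2.61% of the 10907 genes that passed the EV filter, and 0 were called lower, against 2.43%. The median log2 fold change of all 8 genes was 0.91.

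**Figure D1:**
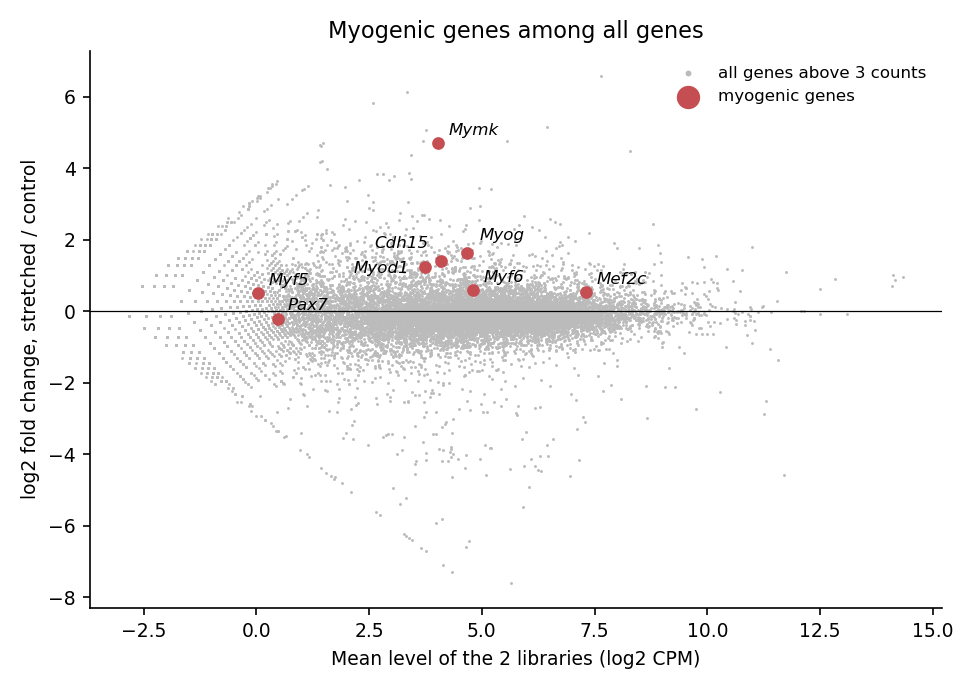
Each point is a gene, with the mean level of both libraries (log2 CPM) on the horizontal axis and the log2 fold change, stretched to control, on the vertical axis. Grey points are the 16255 genes with more than 3 counts in either library and red points the 8 myogenic genes, of which Mymk stands at 4.71 and Pax7 and Myf5 lie at the left, among genes with few counts.

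The satellite cell marker was scarce in both libraries. Pax7, a paired-box factor that satellite cells need, lies on chromosome 4 of mm10 from 139737062 to 139833528 on the minus strand. It had 21 reads without stretch and 15 with it, a log2 fold change of -0.20 (interval -1.26 to 0.82). A difference was not detectable at this depth, and the interval spans folds from 0.416 to 1.77.

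Cdh15, the cadherin by which satellite cells hold to the fibre, differed from Pax7. It lies on chromosome 8 from 122847966 to 122867397 and had 132 reads without stretch and 289 with it. The CPM went from 9.33 to 24.8, which is 1.41 on the log2 scale (interval 1.11 to 1.72). The ratio of Cdh15 counts to Pax7 counts, which no scaling can alter, was 6.29 without stretch and 19.3 with it, a log2 difference of 1.62 (exact conditional interval 0.54 to 2.72).

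The myogenic regulatory factors differed by unequal amounts. Myf5 and Myf6 are neighbours on the minus strand of chromosome 10, Myf5 from 107482908 to 107486134 and Myf6 from 107492853 to 107494737. Myf5, the first of the factors to act in the embryo, had 12 reads without stretch and 14 with it (log2 fold change 0.50, interval -0.72 to 1.75), so no difference was detectable. Myf6 had 315 reads without stretch and 388 with it (0.58, interval 0.36 to 0.80), a fold of 1.496, under the threshold of the call.

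Myod1, the factor that can turn other cells into muscle, lies on chromosome 7 from 46376474 to 46379099. It had 112 reads without stretch and 217 with it, or 7.91 and 18.6 CPM, a log2 fold change of 1.24 (interval 0.90 to 1.58). Myog (myogenin), on chromosome 1 from 134289989 to 134292548, whose promoter is shown above, had 174 reads without stretch and 447 with it. Its CPM went from 12.3 to 38.4, which is 1.64 on the log2 scale (interval 1.39 to 1.90), and 370 of the 16255 genes had a higher one. Both lay higher in stretched skin by more than their counting error.

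Ratios within each library set the factors against each other without scaling. The ratio of Myog to Myf6 counts was 0.552 without stretch and 1.15 with it, a log2 difference of 1.06 (exact conditional interval 0.72 to 1.40). That of Myod1 to Myf6 was 0.356 and 0.559 (0.65, interval 0.25 to 1.06). Both intervals exclude 0, so Myog and Myod1 stood higher against Myf6 in the stretched library. That of Myf5 to Myf6 was 0.0381 and 0.0361, and its log2 difference had an interval from -1.32 to 1.19. The ratio of Myog to Myod1 was 1.55 and 2.06, and the interval of its log2 difference included 0 (0.41, interval -0.02 to 0.83).

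The fusion protein gave the widest gap of the 8 genes. Mymk lies on the minus strand of chromosome 2 from 27061636 to 27072179 and encodes the membrane protein without which myoblasts do not fuse. It had 17 reads without stretch and 365 with it, or 1.20 and 31.3 CPM. The log2 fold change was 4.71 (interval 4.01 to 5.50), a fold of 26.1 with an interval from 16.1 to 45.3, and 7 of the 16255 genes had a higher one. Against Myog its counts stood at 0.0977 without stretch and 0.817 with it, a log2 difference of 3.06 (exact conditional interval 2.31 to 3.90).

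Its partner Mymx, listed in the table under the older symbol Gm7325, had 4 reads without stretch and 61 with it. The log2 fold change was 4.21 (interval 2.78 to 6.13), but its EV of 7.78 was under the filter, so it was not called. The ratio of Mymk to Mymx was 4.25 without stretch and 5.98 with it, and the log2 difference of 0.49 had an interval from -1.59 to 2.17, too wide to set the genes apart.

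Mef2c, a MADS-box factor on chromosome 13 from 83504034 to 83667080, had the most counts of the 8 genes, 1820 without stretch and 2181 with it. Its log2 fold change was 0.54 (interval 0.45 to 0.63), a fold of 1.46 and under the threshold. Its relatives Mef2a (0.05, interval -0.06 to 0.15) and Mef2d (0.14, interval -0.01 to 0.29) had intervals that included 0. The ratio of Mef2c to Mef2a differed by 0.50 on the log2 scale (exact conditional interval 0.36 to 0.63). Mef2c is also transcribed outside muscle, in endothelium, smooth muscle and myeloid cells, and the markers of these cells moved as well. Of 12 endothelial genes 6 had intervals above 0 and 1 below, with a median log2 fold change of 0.32 and a summed level of 324 CPM without stretch and 407 CPM with it. The ratio of Mef2c counts to those of each endothelial gene differed by -0.20 (Tie1) to 0.91 (Kdr) on the log2 scale, with exact conditional intervals above 0 for 5 of the 12 and below 0 for 0. Against Pecam1, which was named after its value was seen, the ratio was 2.14 and 2.21 (0.05, interval -0.12 to 0.21). The part of these cells in the Mef2c value was not tested.

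**Figure D2:**
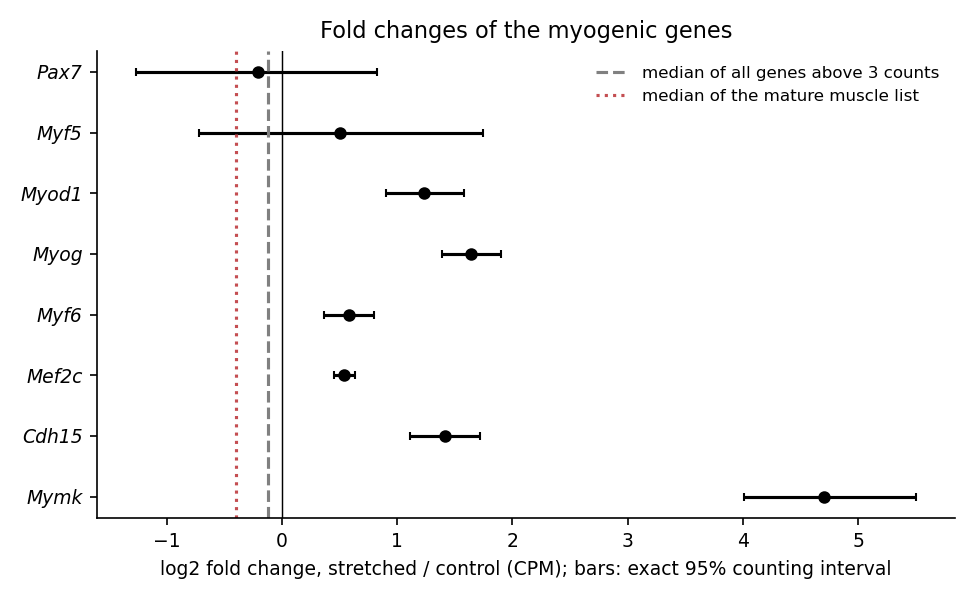
Points give the log2 fold change of CPM, stretched to control, of each of the 8 genes, and bars the exact 95% counting interval. The intervals of Pax7 and Myf5 cross 0, those of Myf6 and Mef2c lie between 0.36 and 0.80, and that of Mymk starts at 4.01; the dashed line is the median of all genes (-0.12) and the dotted line that of the mature muscle list (-0.40).

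Per exon length, the order of the genes differed between the libraries. On the FPKM scale Myf6 was the highest in control skin at 17.6 (Poisson interval 15.7 to 19.7). Myog at 8.22 and Mef2c at 8.18 followed and did not differ beyond counting error. Myod1 (4.25) and Cdh15 (2.87) came next, each apart from its neighbours. Mymk (0.795), Myf5 (0.407) and Pax7 (0.253) were at the bottom, and the interval of each overlapped that of the next. In stretched skin Myog, at an FPKM of 25.7 (interval 23.3 to 28.2), could not be told from Myf6 at 26.4 (interval 23.8 to 29.1). Mymk came next at 20.7 (interval 18.7 to 23.0), above Mef2c (11.9) and Myod1 (10.01), whose intervals overlapped, and Cdh15 (7.63). Myf5 (0.577) and Pax7 (0.220) stayed at the bottom. The place of Mef2c rests on the length used, since the union of the exons of its 31 transcripts is 15715 bases and its longest transcript 6277. With the longest transcript its FPKM was 20.5 without stretch (interval 19.6 to 21.5) and 29.8 with it (interval 28.6 to 31.1), and both intervals overlapped those of Myf6. With its longest transcript Mymk was at 22.7 in stretched skin (interval 20.4 to 25.1), which overlapped Myog and Myf6.

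**Figure D3:**
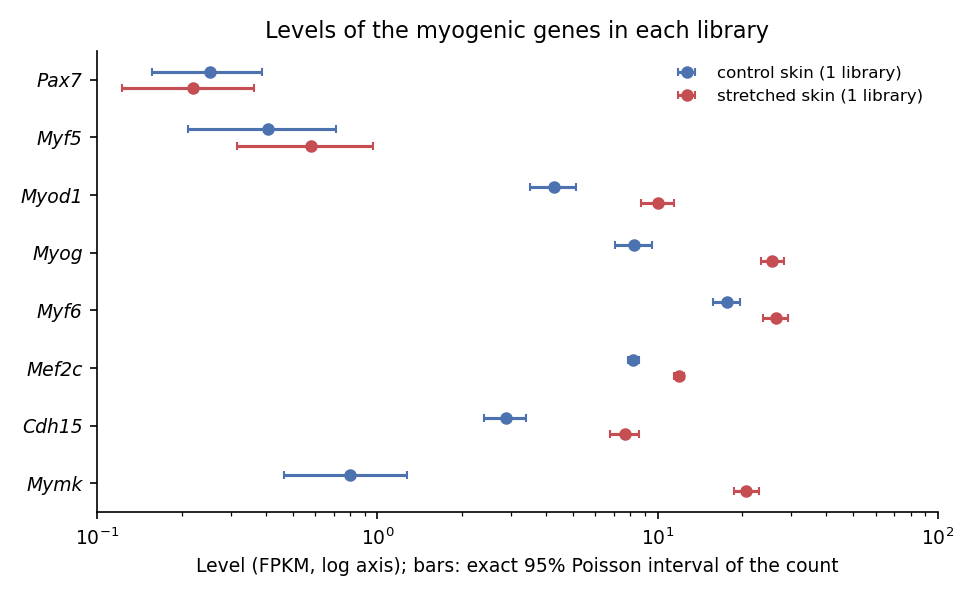
The level of each gene in each library is given as FPKM on a log axis, blue for control and red for stretched skin, with the exact 95% Poisson interval of the count. Mymk moves from 0.795 to 20.7 while Pax7 and Myf5 stay below 1 in both libraries.

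Most genes of mature fibres were lower in stretched skin. The 25 genes of mature skeletal muscle made up 4.37% of the counts without stretch and 3.31% with it, and their median log2 fold change was -0.40. Intervals lay below 0 for 19 of them, against 33.5% of the 16255 genes, and above 0 for 6, against 18.1%. The fast myosin heavy chain Myh4 had 91029 reads without stretch and 3156 with it (-4.57, interval -4.62 to -4.52), whereas the myosin heavy chain Myh2 had 7178 and 16239 (1.46, interval from 1.42). Myh4 alone went from 6432 to 271 CPM, while the whole list summed to 43664 CPM without stretch and 33133 CPM with it. The slow myosin heavy chain Myh7 was also low (-2.75, interval -3.70 to -1.91), and the fast myosin heavy chain Myh1 (1.10, interval 1.08 to 1.12) and the oxygen-binding Mb (1.09, interval 1.02 to 1.17) were high. Relative to the median of this list, the log2 fold changes of Myog and Myod1 were 2.04 and 1.64.

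Most genes of a list that myogenic cells switch on as they differentiate were higher in stretched skin. Of 14 early differentiation genes 11 had intervals above 0 and 1 below, and their median log2 fold change was 2.84. The list was made with earlier results of these data known, and other results had shown several of its genes, so its direction is not independent evidence. Chrnd, a receptor subunit of the muscle synapse, had 14 reads without stretch and 240 with it (4.38, interval 3.61 to 5.27). Musk, the kinase that gathers these receptors, had 13 and 48 (2.17, interval 1.26 to 3.17), and the adhesion molecule Ncam1 had 290 and 876 (1.88, interval 1.68 to 2.07). Chrng and Chrna1, whose E-boxes are shown above, had log2 fold changes of 6.13 (interval 4.76 to 8.02) and 2.23 (interval 1.94 to 2.54). Chrng had 4 reads without stretch and 231 with it. With EV of 6.15, 9.45 and 2.60, Chrng, Chrnd and Musk were under the filter and were not called. The embryonic myosin heavy chain Myh3 was the highest of the list, with 59 and 4637 counts (6.58, interval 6.21 to 6.97), and the perinatal Myh8 had 381 and 6948 (4.47, interval 4.32 to 4.62). Intervals also lay above 0 for the sarcomere genes Myl4 (5.16), Tnni1 (4.77), Tnnt2 (3.45) and Actc1 (1.82). The cell cycle inhibitors of the list did not share the direction, with Cdkn1a at 0.06 (interval -0.01 to 0.13) and Cdkn1c at 0.02 (interval -0.14 to 0.18). Mybph, a myosin binding protein gene of the sarcomere, was lower (-0.59, interval -0.67 to -0.51).

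The other satellite cell genes went both ways. Of 16 genes 15 could be measured, with 6 intervals above 0, 3 below and a median log2 fold change of 0.29. Vcam1 had 92 reads without stretch and 168 with it (1.15, interval 0.77 to 1.53), the syndecan Sdc3 969 and 1594 (0.999, interval 0.88 to 1.12), and the laminin receptor Itga7 1007 and 1518 (0.87, interval 0.76 to 0.99). Pax3, the close relative of Pax7, had 54 and 23 (-0.95, interval -1.72 to -0.22), and the Notch target Heyl 610 and 290 (-0.79, interval -0.999 to -0.59). Calcr, a marker of quiescent satellite cells and the gene of the list that could not be measured, had 2 and 0 counts. Several genes of this list, such as Cd34, Sdc4 and Vcam1, are also transcribed by other cells of the skin.

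Among 27 other fusion genes, Mymx stood alone at the size of Mymk. The median log2 fold change was 0.17, with 14 intervals above 0, 3 below and 0 genes called. After Mymx the highest were Nfatc2, a calcium-dependent factor of muscle growth (1.17, interval 0.99 to 1.35), whose CPM fold of 2.24 falls under 2 once 1 is added to each FPKM, and the cadherin Cdh2 (1.05, interval 0.56 to 1.56). The netrin receptor Neo1 had 2187 reads without stretch and 1032 with it (-0.80, interval -0.91 to -0.70). Adgrb1 was the lowest, with 17 and 6 counts and an interval that included 0 (-1.22, interval -2.85 to 0.19).

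Partners and inhibitors of the myogenic factors were divided as well. Of 36 genes 35 were measured, with 13 intervals above 0, 11 below and a median log2 fold change of 0.07. Mstn (myostatin), the secreted inhibitor of muscle growth, was the lowest and was called. It had 514 reads without stretch and 52 with it, a log2 fold change of -3.02 (interval -3.46 to -2.61). Id4 was the other called gene (-1.15, interval -1.34 to -0.96). The Id proteins bind the E proteins that Myod1 needs as partners, and the other members of the family, named after their values were seen, were lower too. Id1 had 1078 and 549 counts (-0.69), Id3 1529 and 740 (-0.77) and Id2 585 and 372 (-0.37), all with intervals below 0. The ratio of Myod1 to Id1 counts was 0.104 without stretch and 0.395 with it, a log2 difference of 1.93 (exact conditional interval 1.56 to 2.30). The E proteins, also named after their values were seen, differed by less and not in the same direction. Tcf3 was lower (-0.23, interval -0.34 to -0.12) and Tcf4 higher (0.15, interval 0.03 to 0.27). The interval of Tcf12 included 0 (-0.11, interval -0.22 to 0.002). Vgll2, a cofactor found in muscle, was the highest of the list (1.05, interval 0.77 to 1.34) but was not called with 1 added to each FPKM, followed by the histone deacetylases Hdac9 (0.72) and Hdac7 (0.63). The Id genes are widely transcribed in skin and its follicles, and their source in these libraries was not tested.

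**Figure D4:**
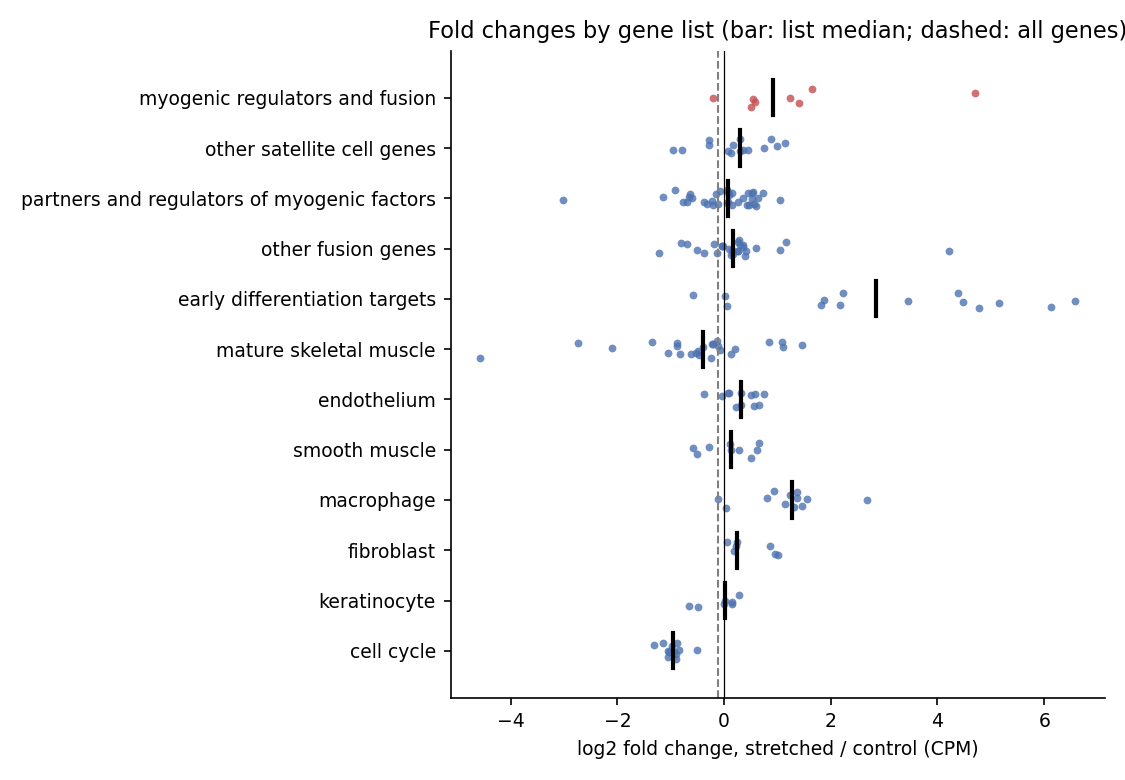
Each point is a gene above 3 counts in at least 1 library, placed by its log2 fold change, stretched to control, in rows by gene list, with the list's median as a black bar and the median of all genes (-0.12) as a dashed line. The early differentiation targets (median 2.84), the macrophage genes (1.27) and the myogenic genes (0.91) lie to the right, mature muscle (-0.40) and cell cycle genes (-0.96) to the left.

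Markers of some other cells moved between the libraries beside the myogenic genes. The 12 macrophage genes had a median of 1.27 on the log2 scale, with 10 intervals above 0 and a summed level of 1061 CPM without stretch and 2340 CPM with it. The 7 fibroblast genes (median 0.25) summed to 41296 and 77480 CPM, and all 7 intervals were above 0. Most of that sum is Col1a1 (1.003), Col3a1 (0.96) and Col1a2 (0.87), and the other 4 genes had log2 fold changes from 0.06 to 0.25. The 9 smooth muscle genes had a median of 0.14, with 6 intervals above 0 and 3 below, and summed to 1000 CPM and 1031 CPM. The 7 keratinocyte genes had a median of 0.02, with 4 intervals above 0 and 2 below, and summed to 17160 and 17206 CPM. Of the 6 B cell genes 3 exceeded 3 counts, all with intervals that included 0, and Ms4a1 was at 0 in both libraries. All 12 cell cycle genes had intervals below 0, with a median of -0.96 and a summed level of 775 CPM without stretch and 390 CPM with it. The part of these shifts in the values of the myogenic genes was not tested.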

How the data were processed

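RNA-seq of whole-layer skin gave 1 library of stretched and 1 of non-stretched skin. Single-end reads of 76 bases were filtered on quality (FASTX-Toolkit) and placed on the genome build mm10 by TopHat2. Raw counts per gene symbol were deposited. The counter, its annotation and its handling of strand and shared reads are not given in the sources used here. From the counts, CPM and FPKM were computed with library totals and the union of exons in GENCODE M21 (23376 genes matched by name, 645 by RefSeq synonym, 400 without length). Fold changes are ratios of CPM. Counts under 3 were raised to 3, and genes at or under 3 counts in both libraries were not compared. Intervals are exact at 95% (Clopper-Pearson, Poisson, or conditional odds ratio). The median of a list is beside its counts, and no test across replicates was possible. Calls took their thresholds from the methods of the study, which used FPKM from Cufflinks. Here FPKM was computed from the deposited counts, with a pseudocount of 1, which the methods do not state. Calls and intervals were tested on simulated counts that carried counting error only. That test checks the computation and cannot speak to differences between replicates.

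The genes and lists were chosen with earlier results of these data known. Named are all 8 genes, the early differentiation targets, and of each other list among genes with at least 20 counts the 3 highest and 2 lowest, unless the text says otherwise. The marker lists of other cells and of the cell cycle are given by their counts and sums, which departs from this rule. A list of signals to myogenic cells was added after the data were seen. Alternatives were scaling by the median of ratios of DESeq2 1.42.0, by TMM of edgeR 4.0.16 and by the upper quartile, totals without the top 50 genes, values relative to mature muscle, 1 CPM added, other pseudocounts, EV filters, units and lengths. Python 3.11.15 and R 4.3.3 were used. Promoters are from RefSeq on GRCm38.p6.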

Additional observations from a re-analysis of the deposited data

How the results depend on the processing

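No called value changed sign. Pax7, whose interval included 0, was at 0.20 relative to the median of the mature muscle list, against -0.20 by library totals, because the median of that list (-0.40) is subtracted. Relative to the same median, the log2 fold changes were 1.64 for Myod1, 2.04 for Myog, 0.98 for Myf6, 0.94 for Mef2c and 1.81 for Cdh15. With 1 CPM added to both values, that of Mymk was 3.88, since its control level is near 1 CPM. Mef2c was 0.64 with TMM, 0.65 with median of ratios and 0.64 with upper-quartile scaling, which add a shift to every gene. The median of the partners and regulators was 0.17, 0.18 and 0.17 in the same order. With EV above 100 the number of myogenic genes called higher was 1, Myog, because that filter leaves out Mymk, Cdh15 and Myod1, and in the other 7 alternatives it stayed at 4. The number with an interval above 0 was 6 under each of the 4 scalings. Of 53 values of the marker lists and the signal list, 18 moved by more than the counting interval of the middle genes. No paired analysis was possible because each condition had a single library, which also means that none could be left out. Depth limits genes with few counts, such as Pax7, Myf5 and Mymx.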

Other observations

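Signals known to act on myogenic cells were read from a list of 24 genes that was added after the data were first examined. The median log2 fold change was -0.11, against -0.12 for all genes. Of the 24 intervals 5 lay above 0 and 10 below, where 18.1% and 33.5% of the 16255 genes did. Igf2, a growth factor of developing muscle, had 471 reads without stretch and 2093 with it (2.43, interval 2.29 to 2.58), and Postn, a matrix protein of remodelling tissue, had 8261 and 15913 (1.23, interval 1.19 to 1.27). Both were called higher. The lowest by the naming rule were the Wnt ligand Wnt5a, with 928 and 298 counts (-1.36, interval -1.55 to -1.17), and the Notch ligand Jag1, with 2110 and 829 (-1.07, interval -1.18 to -0.95), both called lower. The Notch receptors and ligands of the list, which hold satellite cells back from differentiation, all had intervals below 0. These 5 genes, singled out after their values were seen, were Notch1 (-1.05), Notch3 (-0.40), Dll1 (-0.71), Jag2 (-0.45) and Jag1. They are also transcribed in the epidermis, follicles and vessels, and their source was not tested. Il6, a cytokine that muscle also secretes, had 14 reads without stretch and 21 with it, and its interval included 0.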
